A study of Mus musculus with 4 samples.

Results

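The 10 genes described here encode proteins that build, bind or regulate the microtubules of young neurons: Mapt, Map2, Map1b, Dcx, Tubb3, Stmn2, Stmn3, Stmn4, Crmp1 and Dpysl3. They were chosen by gene symbol, with earlier results of these data known. Every probe set that the platform annotation gives to 1 of these symbols alone was kept. This gave 22 of the 22626 probe sets on the array that are not controls. RNA was measured on 4 one-colour Affymetrix arrays of mouse P19 embryonal carcinoma cells, which take on neural fates once they are aggregated with retinoic acid. Unmodified P19 cells were the control (2 arrays), and P19 cells that constitutively express human LIN28A were the experimental line (2 arrays). All cells, control and experimental alike, were aggregated for 4 days with 5e-07 M all-trans retinoic acid. The labels name neither the promoter that drives LIN28A nor whether the line is 1 clone, and they call the arrays repeats without saying that these came from separate cultures. Any p-value here reflects array-to-array spread alone, possibly of technical origin, and precision is limited by the number of arrays.

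Microtubules are polymers of alpha- and beta-tubulin that fill axons and dendrites. Structural microtubule-associated proteins such as tau, MAP2 and MAP1B bind and stabilise the polymer, doublecortin does so in migrating and newly born neurons, and the stathmins bind tubulin dimers and destabilise microtubule ends. The collapsin response mediator proteins, here Crmp1 and Dpysl3, bind tubulin and act in growth cone signalling. LIN28A is an RNA-binding protein of early embryonic and stem cells that binds the precursors of the let-7 microRNAs and prevents their processing.

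Promoter windows were found in the RefSeq table (build GRCm38.p6) for 6 of the 10 genes, as 8 windows of 300 bases that run from 250 bases before to 50 bases after a transcript start. They were searched on both strands for CAGNTG, the E-box form that many proneural transcription factors bind, because these genes read lower together in 1 of the lines. It was present in 3 of the 8 windows, against 51.4% of the 32851 windows in the table, so it was no commoner in these few windows. The 2 Dcx windows overlap and are thus not separate regions. Mapt, Stmn2, Stmn4 and Dpysl3 had no window, so nothing is said of them. The windows of Stmn3 (chr2:181314451-181314750, minus strand) and Map1b (chr13:99516553-99516852, minus strand) each held 1 match, in capitals, which began 75 and 213 bases before the start. The other match lay in 1 of the 2 Crmp1 windows, and those of Map2, Tubb3 and Dcx held none. A match is a description of the letters and not a binding site.
Stmn3: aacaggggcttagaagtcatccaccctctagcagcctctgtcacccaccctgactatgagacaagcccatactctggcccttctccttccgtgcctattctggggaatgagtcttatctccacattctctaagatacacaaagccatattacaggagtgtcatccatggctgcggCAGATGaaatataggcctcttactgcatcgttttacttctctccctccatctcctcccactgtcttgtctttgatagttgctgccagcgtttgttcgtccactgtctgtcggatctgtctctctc
Map1b: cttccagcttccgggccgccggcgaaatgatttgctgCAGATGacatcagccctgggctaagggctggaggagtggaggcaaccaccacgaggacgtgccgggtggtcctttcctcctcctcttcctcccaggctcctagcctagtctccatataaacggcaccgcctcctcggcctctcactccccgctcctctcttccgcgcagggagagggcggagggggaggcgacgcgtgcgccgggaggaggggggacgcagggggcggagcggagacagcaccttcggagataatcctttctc

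Median intensities were 35.8 and 38.6 on control arrays 1 and 2, and 29.0 and 36.7 on LIN28A arrays 1 and 2. Between 35.7% and 42.3% of probe sets read under an intensity of 16. LIN28A 1 had both the lowest median and the highest share under 16. Values below are deposited linear intensities, which have no detection calls. Differences are LIN28A minus control on the log2(value + 16) scale, which understates the change of dim probe sets. Arrays with the same replicate number deviated together from their line's mean across probe sets (r = 0.62, over 15838 probe sets that are not independent), so the members' differences are also given within number 1 and within number 2. The fit across all probe sets (limma, no block) called 0 higher (0% of 15838) and 0 lower (0%) at an adjusted p under 0.05, and the adjusted p of every tested member probe set was 0.999997. At an unadjusted p under 0.05, 2 member probe sets were lower, against 1.21% of all probe sets. None of the member differences below passed the test, and they stand as descriptions. A value after ± is the SE from this limma fit, which borrows variance from all tested probe sets. It is not the spread of the printed arrays alone, and the n beside it counts arrays per line.

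The genes of neuronal microtubule proteins read lower in the LIN28A line as a group. Because the list was chosen with earlier results known, the shares of all genes beside its counts are descriptions and not tests. Taking for each gene the probe set with the highest mean, all 10 lay below 0 within number 1, where 58.7% of the 8930 tested genes did. Within number 2, 9 of 10 lay below 0, against 48.1% of all genes, and the exception was Tubb3. The same 9 lay below 0 in both numbers, as did 32.6% of all genes. At least 1.5-fold lower were 5 members in number 1 (11.8% of all genes), 5 in number 2 (6.13%) and 3 in both (1.76%), namely Mapt, Map2 and Stmn4. The median difference over the 10 genes was -0.57, with -0.56 in number 1 and -0.59 in number 2, beside -0.04 for all tested genes. Centring each array on its median moved the median of all genes to 0.09 and that of the members to -0.45, a shift of every gene by the same amount. Relative to all genes the members stood at -0.54 as deposited and at -0.59 after quantile normalization. Leaving out LIN28A replicate 1 brought the member median to -0.016 and leaving out control replicate 2 to -0.060. It became -1.12 when control replicate 1 was dropped and -1.31 when LIN28A replicate 2 was. Such fits hold unequal numbers of each replicate number, and number 2 minus number 1 had a median of 1.10 over the members, so part of that difference entered them.

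**Figure D1:**
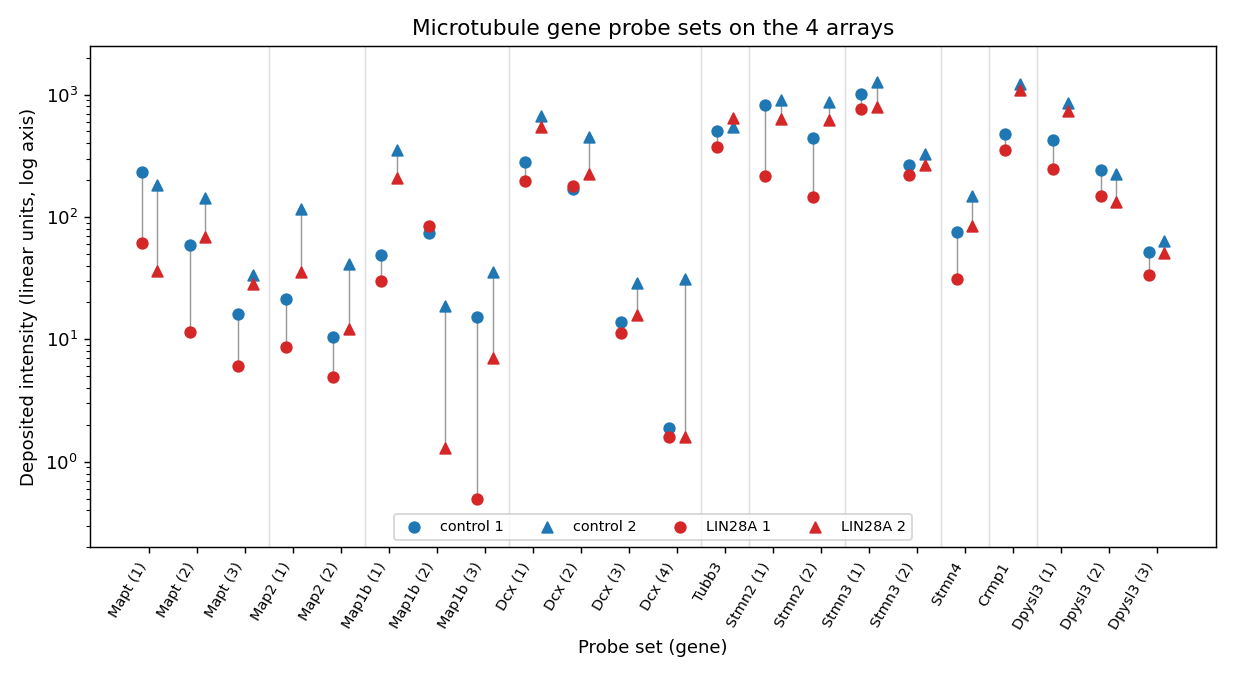
Deposited intensity (log axis) of the 22 member probe sets on control arrays (blue) and LIN28A arrays (red), with circles for number 1, triangles for number 2 and a grey line joining the arrays of 1 number. Numbers in brackets order a gene's probe sets by mean level, and the red symbol lies below the blue one of its number except at Tubb3 in number 2 and at Map1b (2) and Dcx (2) in number 1.

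Tau, encoded by Mapt, binds along axonal microtubules, and its brightest probe set showed the largest mean difference of all 22. That probe set, 1424719_a_at, read 231.6 and 181.9 on control arrays 1 and 2 and 61.0 and 36.5 on LIN28A arrays 1 and 2. Both LIN28A arrays lay well below both control arrays, with a difference of -1.80 ± 0.33 (SE, n = 2 per line), or -1.69 in number 1 and -1.91 in number 2. Its unadjusted p in limma was 0.0018 (adjusted p = 0.999997). Probe set 1424718_at, annotated to the same transcript accession, read 59.1 and 143.1 in control against 11.4 and 68.1 in LIN28A cells. Here the lines overlapped, because control 1 lay below LIN28A 2, but the difference was -1.45 in number 1 and -0.92 in number 2. The third, 1417885_at, read 16.1 and 33.4 against 6.0 and 28.1, a difference of -0.35 ± 0.44 (SE, n = 2) that was -0.55 in number 1 and -0.16 in number 2. The 3 Mapt probe sets thus shared a direction within each number and differed in size by over 1 log2 unit. They also differed in how the numbers compared: number 2 minus number 1 was -0.44 at 1424719_a_at, 1.35 at 1424718_at and 0.81 at 1417885_at. The suffix _a_at marks, in the manufacturer's naming, probes shared by alternative transcripts of 1 gene.

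MAP2, the dendritic microtubule-associated protein, was measured by 2 dim probe sets. The brighter, 1421328_at, read 21.5 and 116.8 in control against 8.6 and 35.8 in LIN28A cells. Within each number the LIN28A array was the lower, by 0.61 log2 units in number 1 and 1.36 in number 2, while control 1 lay below LIN28A 2. The other probe set, 1421327_at, read 10.4 and 41.2 against 4.9 and 12.2, so that only control 2 read above 16, and its difference was -0.34 in number 1 and -1.02 in number 2.

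MAP1B, which is abundant in growing axons, gave 3 probe sets annotated to 1 accession that disagreed about the arrays. The brightest, 1421851_at, read 49.2 and 354.2 in control against 29.9 and 209.3 in LIN28A cells. Number 2 was higher than number 1 by 2.40 log2 units there, the widest gap between numbers in that direction among the members, and the lines differed by -0.51 in number 1 and -0.72 in number 2. Probe set 1450397_at ran the other way between numbers, with 74.2 and 18.8 in control against 83.8 and 1.3 in LIN28A cells. Its difference between lines was 0.15 in number 1 and -1.01 in number 2. At the dim 1421850_at the lines did not overlap, with 15.1 and 35.7 in control against 0.5 and 7.1 in LIN28A cells (-1.04 ± 0.38 SE, n = 2, with -0.91 in number 1 and -1.16 in number 2; limma's unadjusted p = 0.034, adjusted p = 0.999997). Both LIN28A values and that of control 1 lay under the 16 added before the logarithm, and whether these values exceed background is not recorded. The difference at this probe set was -2.80 with 1 added instead of 16, and -0.39 with 64.

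Doublecortin, encoded by the X-linked Dcx, stabilises microtubules in migrating neurons. Its brightest probe set, 1418139_at, read 283.1 and 665.7 in control against 195.7 and 539.8 in LIN28A cells. LIN28A was the lower array within each number, by 0.50 and 0.29 log2 units, and the lines overlapped because LIN28A 2 exceeded control 1. Probe set 1418141_at read 168.7 and 446.7 against 178.0 and 225.1, a difference of 0.07 in number 1 and -0.94 in number 2. The 2 dim probe sets lay at 11.2 to 28.7 (1418140_at; -0.13 and -0.50) and at 1.6 to 31.1 (1448974_at; -0.02 and -1.42). At 1448974_at every array except control 2 read under 2, and it did not pass the filter on low values, the only member probe set left out of the fit.

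Tubb3 encodes the beta-tubulin isotype widely used as a marker of neurons, and it was the member that differed least. Its single probe set read 507.8 and 539.7 in control against 372.4 and 644.1 in LIN28A cells. LIN28A 1 was the lowest array and LIN28A 2 the highest, so the differences were -0.43 in number 1 and 0.25 in number 2. The mean difference of -0.09 ± 0.35 (SE, n = 2) was 0.036 after median centring and 0.29 without LIN28A replicate 1, so no direction is given.

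The 3 neuronal stathmins all read lower within both numbers. Stmn2, which encodes the growth cone protein SCG10, read 820.7 and 902.1 in control against 216.1 and 626.9 in LIN28A cells at 1423281_at. The lines did not overlap, and the gap was wider in number 1 (-1.85) than in number 2 (-0.51). At its other probe set, 1423280_at, the values were 445.3 and 874.4 against 146.1 and 617.2, with -1.51 in number 1 and -0.49 in number 2. Both Stmn2 probe sets thus gave a difference in number 1 at least 1 log2 unit larger than in number 2, a contrast that 1 array per line and number does not allow to be tested.

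Stmn3 encodes SCLIP, a close relative of SCG10. Its brighter probe set, 1435113_x_at, read 1012.4 and 1256.3 in control against 760.1 and 789.3 in LIN28A cells. The lines did not overlap, with -0.41 in number 1 and -0.66 in number 2, but the suffix _x_at marks probes that may bind other transcripts. The other, 1460181_at, read 265.4 and 329.4 against 221.9 and 267.0, differing by -0.24 and -0.29, with LIN28A 2 just above control 1. Stmn4, which encodes the stathmin family protein RB3, read 75.7 and 148.3 in control against 31.3 and 84.3 in LIN28A cells. LIN28A was lower by 0.96 log2 units in number 1 and 0.71 in number 2, and the lines overlapped because LIN28A 2 exceeded control 1.

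The collapsin response mediators also read lower within both numbers. Crmp1 read 477.6 and 1225.9 in control against 351.3 and 1098.3 in LIN28A cells, so the numbers (1.47 for number 2 minus number 1) stood much further apart than the lines (-0.43 in number 1 and -0.16 in number 2). Dpysl3, also called Crmp4, was read by 3 probe sets. At 1415877_at the values were 240.2 and 222.9 in control against 148.9 and 131.6 in LIN28A cells. These arrays showed the smallest gap between numbers of any member probe set (-0.13), no overlap of the lines and nearly equal differences of -0.64 and -0.69 (-0.67 ± 0.28 SE, n = 2; limma's unadjusted p = 0.056, adjusted p = 0.999997). The brightest probe set, 1454613_at, read 427.0 and 856.7 against 246.7 and 728.7, with -0.75 in number 1 and -0.23 in number 2. The dimmer 1438789_s_at read 51.6 and 64.1 against 33.6 and 50.5, again without overlap, and differed by -0.45 and -0.27.

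Over all 22 probe sets, every mean difference lay below 0, from -1.80 at Mapt to -0.09 at Tubb3, and 19 lay below 0 within both numbers. Leaving out 1 array turned the sign at 8 of the 21 tested, which belong to Mapt, Map1b, Dcx, Tubb3, Crmp1 and Dpysl3. Of these 21, 6 had both LIN28A arrays below both control arrays, against 15.5% of all probe sets, and these belong to Mapt, Map1b, Stmn2, Stmn3 and Dpysl3. At 18 of the 22, number 2 exceeded number 1 in both lines, and the exceptions were 1 probe set each of Mapt, Map1b, Dcx and Dpysl3. What set the numbers apart is not given in the labels.

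**Figure D2:**
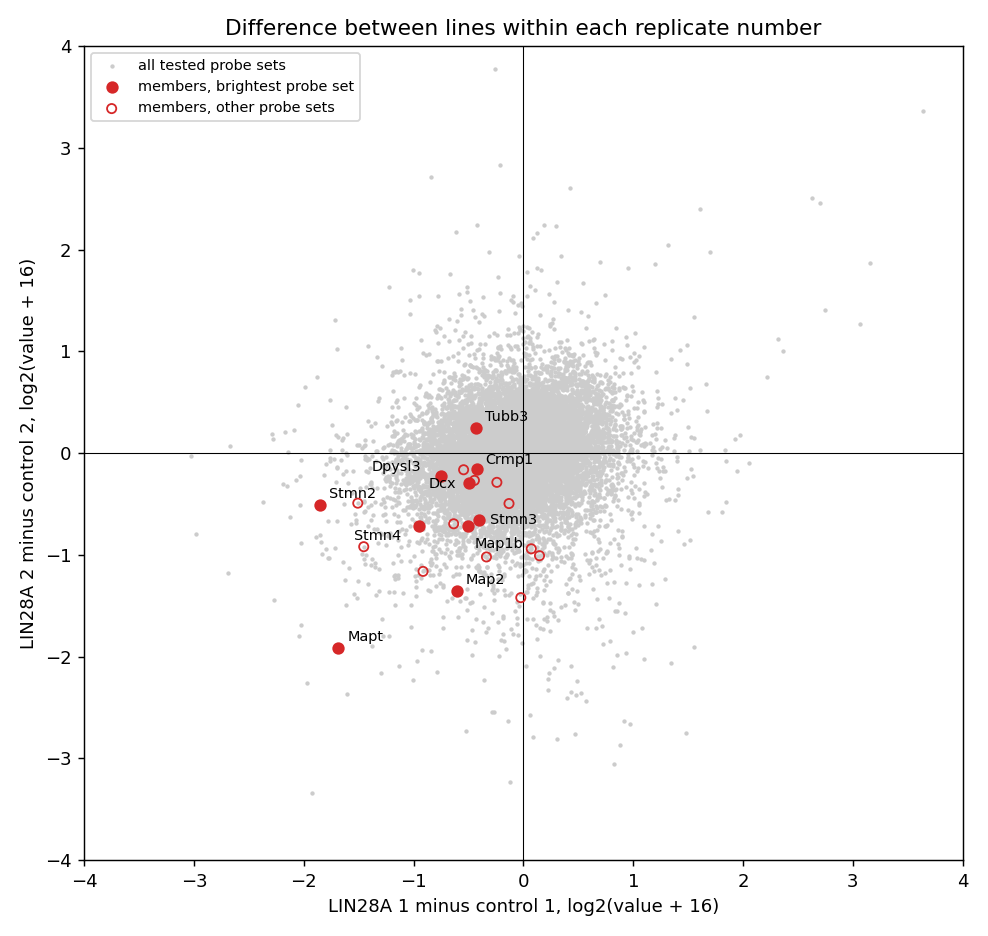
Difference between LIN28A and control within number 1 (horizontal) and within number 2 (vertical), both on the log2(value + 16) scale, for all 15838 tested probe sets (grey) and the 22 member probe sets (red, filled for each gene's probe set with the highest mean). Among the members Mapt lies furthest towards the lower left at -1.69 and -1.91, Stmn2 is displaced mainly along number 1, and Tubb3 is the 1 member above 0 in number 2.

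The mean profile of the members over the arrays, each gene centred on its own mean, was -0.08 in control 1, 0.80 in control 2, -0.90 in LIN28A 1 and 0.17 in LIN28A 2. Stmn4 lay nearest to it (root mean square distance 0.06 log2 units over 4 arrays) and Mapt furthest (0.90). Outside the members, the nearest profiles among tested genes were those of Snap91 (0.080), Samd10 (0.080), Hoxa9 (0.10), Mllt11 (0.10) and Narf (0.11). Snap91 encodes AP180, a clathrin adaptor of synaptic vesicle recycling, and read 111.4 and 243.1 in control against 59.1 and 159.8 in LIN28A cells. With 4 arrays these distances are a description.

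Other genes of the microtubule system were listed to set beside the members, and 66 of 84 could be tested. Their median difference was 0.02, with 30 below 0 and 36 above, none passed the adjusted threshold, and 3 were lower in LIN28A at an unadjusted p under 0.05 (1.34% of all tested genes) and 0 higher (0.493%). Of 10 tubulins 6 lay below 0 (median -0.12), and isotypes went in different directions. Tubb2a read 46.7 and 49.1 in control against 11.9 and 7.1 in LIN28A cells (-1.33 ± 0.29 SE, n = 2), though its other probe set, at 6.3 to 19, differed by -0.08. Tubb4a read 50.7 and 44.8 against 9.0 and 26.2 (-0.97). Tubb4b, a broadly expressed isotype, lay on the other side, with 718.6 and 447.2 in control against 1040.1 and 964.0 in LIN28A cells (0.80 ± 0.34 SE, n = 2). Its other probe sets, at 3.8 to 36.7, differed by 0.55, 0.25 and 0.18. Those at 0.25 and 0.18 overlapped between lines and lay at -0.08 and -0.02 in number 1. The abundant neural isotype Tubb2b differed by -0.33, with -0.0066 in number 1 and -0.66 in number 2. Tubulin isotypes are closely similar in sequence, and how far their probes share signal was not tested.

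Among family relatives, Dclk1, a kinase with doublecortin domains, had a larger mean difference than any Dcx probe set, though that contrast between genes was not tested. Its brightest probe set read 120.4 and 57.9 in control against 34.6 and 20.9 in LIN28A cells (-1.22 ± 0.40 SE, n = 2), and its other 3 differed by -1.24, -0.75 and -0.09, the last at a level of 7.8 to 11.6. Stmn1, the broadly expressed stathmin of dividing cells, read 4223.4 and 3453.8 against 3813.3 and 3825.0 at its brightest probe set. Its difference there was -0.15 in number 1 and 0.15 in number 2, and its mean difference was 0.27 after quantile normalization. The other Stmn1 probe set differed by 0.52, with 0.02 in number 1 and 1.03 in number 2. Dpysl4 and Dpysl5 differed by 0.12 and 0.08.

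Of 18 other microtubule-associated and end-binding proteins, 6 lay below 0 and 12 above (median 0.10). The end-binding gene Mapre2 read 858.9 and 842.0 against 468.3 and 603.8 (-0.66), with its other 3 probe sets between -0.62 and -0.20, and the autophagy protein gene Map1lc3b differed by -0.37. The mitotic spindle gene Tpx2 lay above 0 at both probe sets (0.60 and 0.74), as did Map7 (0.60 and 0.56). Of 10 axonal kinesins 6 lay below 0 (median -0.11). Kif5a, a neuronal transport kinesin, read 18.3 and 31.4 against 3.6 and 13.3 (-0.75), while Kif3a and Kif3c differed by -0.24 and -0.31. Kif3b differed by 0.38 at its brightest probe set and by -0.24, -0.08 and -0.06 at the other 3. Of 9 lissencephaly and dynein genes 5 lay below 0 (median -0.04), with Nde1 at 0.31, Ndel1 at -0.20, Dctn1 at 0.15 and Dctn2 at -0.16. Of 15 kinases, severing and tubulin-modifying enzymes 5 lay below 0 (median 0.06), with Gsk3b at 0.43, Ttl at 0.32, Tbce at -0.35 and Cdk5r1, the activator of the neuronal kinase Cdk5, at -0.35. The Gsk3b difference was 0.80 in number 1 and 0.07 in number 2. The Ttl difference was 0.63 in number 1 and 0.01 in number 2, and its other 3 probe sets differed by 0.08, 0.04 and -0.21.

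Markers of cell types also differed between the lines, by the values below, and none passed the adjusted threshold. Of 17 tested neuronal genes outside the microtubule system, 16 lay below 0 in mean difference, beside 4905 of all 8930 tested genes. Their median was -0.46, with -0.63 in number 1 and -0.51 in number 2. Within number 1, 14 of the 17 lay below 0, where 58.7% of all genes did. Within number 2 also 14 did (48.1% of all genes), and in both numbers 12 (32.6%). The summed level of these neuronal genes was 4134 and 6721 on the control arrays and 2703 and 4888 on the LIN28A arrays. The members' own sums were 3907 and 6248 against 2273 and 4793. Of 10 markers of dividing cells, all lay above 0 in mean difference, beside 4025 of all 8930 tested genes. In both numbers 9 of the 10 lay above 0, beside 2297 of the 8930. The median of the dividing cell markers was 0.52, with 0.39 in number 1 and 0.72 in number 2. Their sums were 11790 and 7532 against 14086 and 12322. Of all genes, 58.7% lay below 0 in number 1 and 48.1% in number 2, beside 3 and 8 of 10 neural progenitor genes (medians 0.13 and -0.43). The median mean difference of the progenitor genes was 0.05, with sums of 8219 and 10051 against 8672 and 7235. Of 7 pluripotency genes, 4 lay below 0 in number 1 (median -0.05) and 1 in number 2 (median 0.71). Their median mean difference was 0.48, with sums of 263 and 548 against 435 and 1159. Single genes weighed heavily in these sums. Pou5f1 read 30.3 and 374.2 in control against 28.7 and 775.2 in LIN28A cells, and Sall4 read 16.4 and 2.1 against 194.2 and 83.1. Among the progenitor genes, Vim read 4084.5 and 4164.9 against 3682.1 and 2982.6, and Fabp7 565.2 and 1954.8 against 613.0 and 734.6. Hes5, at 185.6 and 194.3 against 924.2 and 337.2, was the 1 progenitor gene above 0 in both numbers, and 2 lay below 0 in both. Of 8 glial genes 3 were tested, with a median difference of -0.42. The glial sums were 199.7 and 253.9 in control against 108 and 229.6 in LIN28A cells, mostly from Mbp (161.9 and 237.2 against 97.3 and 205.1). Of 8 fibroblast and muscle-like genes 5 were tested (median 0.45, sums of 206 and 125 against 266 and 346). Of 6 endoderm genes 2 were tested (median 0.39, sums of 24.8 and 23.2 against 24.0 and 63.6). None of these markers read 0 on any array, but the neuronal Rbfox3 and Gad1 reached at most 11.9, the pluripotency genes Dppa4, Tdgf1 and Zfp42 at most 11.8 and the endoderm genes Afp, Foxa2, Gata4 and Sox17 at most 10, and none of these passed the filter. Gfap, the astrocyte marker, lay between 1.3 and 22.1. The part of these shifts in the members' values was not tested. In bulk RNA, fewer neurons and less of these RNAs per neuron cannot be told apart. Mouse probe sets do not check the human transgene, and mouse Lin28a read 30.7 and 76.2 in control against 56.1 and 37.5 in LIN28A cells at its brighter probe set. The other Lin28a probe set read 28.8 and 15.5 against 7.0 and 8.6 (-0.96 in number 1 and -0.36 in number 2).

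**Figure D3:**
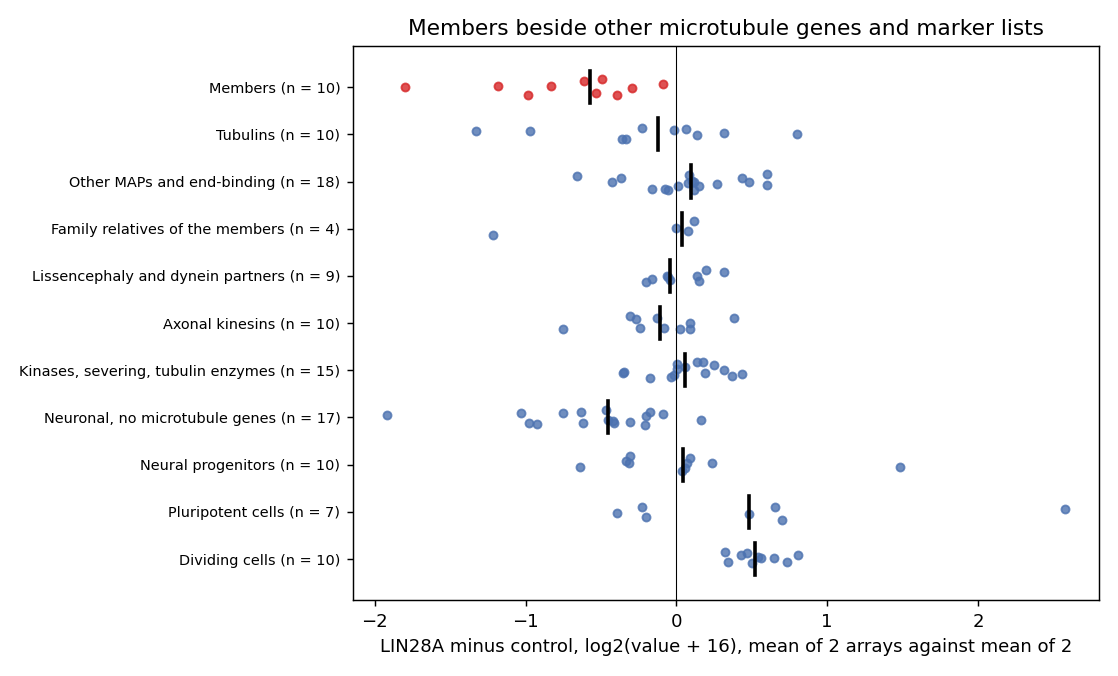
Difference between LIN28A and control (2 arrays against 2, log2(value + 16)) for each tested gene of the member list (red), the lists of other microtubule genes and 4 marker lists (blue), with a black bar at each median; vertical scatter is for display only. The members (median -0.57) and the neuronal genes (-0.46) lie to the left. The 6 lists of other microtubule genes have medians between -0.12 and 0.10, and the neural progenitor genes 0.05. The dividing cell markers (0.52) and the 7 pluripotency genes (0.48) lie to the right. The glial, fibroblast and muscle-like, and endoderm lists are not drawn.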

How the data were processed

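The authors deposited 1 table of linear intensity values for 22690 probe sets, made with summarising and scaling software that the sources used here do not give; per the labels' protocols, biotin-labelled cRNA was made from total RNA through oligo(dT)-primed cDNA. The trimmed mean (2% at each end) was 150.1 in every array, so the values were taken as already scaled. From these, log2(value + 16) was computed. The 64 control probe sets and those under the 30th percentile of the mean (a linear value of 8.04) were left out, leaving 15838. Gene names come from the platform's annotation (20393 probe sets with 1 symbol, 691 with several, 1555 with none); 0 member symbols needed an update. The lines were compared with limma 3.58.1 (lmFit, eBayes) in R 4.3.3, with Benjamini-Hochberg adjustment over all tested probe sets and a threshold of 0.05; the script was tested on simulated data. With 2 arrays against 2, an exact two-sided permutation test cannot give a p under 0.333. In a list, each gene stands with the brightest of its tested probe sets. Named besides the members are up to 4 genes of each microtubule list with the smallest unadjusted p, and the 5 genes with the nearest profile. The members and lists were chosen with earlier results of these data known. Results were also computed under 13 other settings: the replicate number as a block, quantile normalization, median centring, other pseudocounts and filters, eBayes with trend, averaged probe sets and leaving out each array.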

Additional observations from a re-analysis of the deposited data

How the results depend on the processing

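No probe set was called lower under any setting run, and none was called higher except 1 with the replicate block. The labels tie same-numbered arrays together by number alone (deviations of same-numbered arrays correlated with r = 0.62). In the fit with the replicate block, 11 of 21 member probe sets had an unadjusted p under 0.05, all lower, as had 5.62% of all probe sets, and their adjusted p ranged from 0.19 to 0.92. The member median of -0.57 was -0.45 with median centring, -0.63 with pseudocount 1, -0.47 with pseudocount 64, -0.53 with the filter at the 50th percentile (9 genes), -0.60 with probe sets averaged, and -1.31 to -0.016 without 1 array. The count of members lower within both numbers was 9 of 10, or 8 of 9 with the stricter filter, in every setting that keeps all 4 arrays; leaving out an array gives it no value. Of 50 named differences, 34 kept their sign in all settings. Besides leaving out an array, sign changes occurred at Tubb3 (0.036, median centring) and Stmn1 (0.27, quantile; 0.13, median centring). Without 1 array, the ranges that crossed 0 were -0.86 to 0.15 (Mapt 1417885_at), -1.86 to 0.64 and -1.70 to 0.83 (Map1b 1421851_at and 1450397_at), -1.09 to 0.30 and -1.10 to 0.23 (Dcx 1418139_at and 1418141_at), -0.47 to 0.29 (Tubb3), -1.09 to 0.51 (Crmp1), -1.24 to 0.26 (Dpysl3 1454613_at), -0.0070 to 0.24 (Dpysl4), -0.25 to 0.41 (Dpysl5), -0.14 to 0.14 (Stmn1), -0.00032 to 0.31 (Dctn1), -0.61 to 0.21 (Ndel1), -0.66 to 0.042 (Kif3c), -0.088 to 0.86 (Kif3b) and -1.02 to 0.31 (Cdk5r1). Unequal replicate numbers enter those fits by construction; other causes were not tested. The lack of detection calls limits what can be said of probe sets under 16.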
